A study of Mus musculus with 14 samples.

Results

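Matrix metalloproteases (Mmp genes), ADAMTS proteases and tissue inhibitors of metalloproteases (Timp genes) were examined in mouse liver after injection of concanavalin A (ConA), a plant lectin that activates T cells and causes immune-mediated hepatitis. The 10 genes, chosen by symbol, were the inhibitors Timp1, Timp2 and Timp3, the matrix metalloproteases Mmp7, Mmp12, Mmp13 and Mmp14, and the ADAMTS proteases Adamts1, Adamts4 and Adamts9. All 10 were among the 17656 genes listed in each of the 14 liver RNA-seq libraries. Wild-type (WT) mice and mice with a whole-body knockout (KO) of Ythdf1, a reader of N6-methyladenosine on RNA, received saline or ConA by the tail vein, and liver was taken 8 h later. The groups were WT saline (n = 3), KO saline (n = 3), WT ConA (n = 4) and KO ConA (n = 4). All mice were 8-week-old males on a C57BL/6 background, and the ConA dose was 8 mg/kg. The knockout was carried by every cell type of the animal, so no result below belongs to a single cell type. In whole liver, fewer cells of a type and less RNA per cell cannot be told apart.

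Matrix metalloproteases are zinc-dependent enzymes that cut collagens, proteoglycans and other proteins of the extracellular matrix, as well as cytokines and receptors at the cell surface. ADAMTS proteases are secreted relatives that carry thrombospondin repeats and cut proteoglycans such as versican and aggrecan. TIMPs bind the active site of many of these enzymes and block it, so that the amount of proteolysis depends on both sides. Not every TIMP blocks every enzyme. In liver, hepatic stellate cells, endothelial cells and infiltrating leukocytes are known sources of both, and TIMP1 is a well-known marker of liver injury and fibrosis.

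Levels are given as TPM, transcript abundance corrected for transcript length and scaled to the library total, which allows levels to be compared between genes. No read counts were used, so the depth behind the values is unknown. The tissue label was borne out by its markers, since all 8 hepatocyte markers examined reached 1 TPM in every group, with summed levels of 52406 to 132648 TPM. Ythdf1 itself was listed at 12.0 to 13.9 TPM in the WT saline libraries, 18.4 to 20.8 TPM in the KO saline libraries, 18.7 to 25.6 TPM in the WT ConA libraries and 15.5 to 26.2 TPM in the KO ConA libraries. The KO libraries thus did not lack Ythdf1 transcript, and all KO saline libraries lay above the WT saline libraries. How much of the gene the knockout removes is not given in the text used here. A value for the whole gene would not check a partial deletion, so the genotype labels were not checked by these levels. On the 100 genes used to check replicates, WT saline replicates 2 and 3 were much more alike than any other pair of the same group. The median absolute log2 difference on these genes was 0.116 for this pair. Every other same-group pair lay between 0.244 and 1.81. These values hold for the genes of the check and not for genes in general. WT saline replicates 2 and 3 were kept as separate mice. Calls in the comparison of KO with WT mice after saline are given below with the pair averaged as well. Of 2009 genes called there, averaging left 49.

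Mmp13, Mmp12 and Mmp7 lie in 1 cluster of metalloprotease genes on chromosome 9 that spans 427072 bases and holds 10 coding genes, of which 6 were in the files (RefSeq, GRCm38.p6). The other members lie on chromosomes X (Timp1), 11 (Timp2), 10 (Timp3), 14 (Mmp14), 16 (Adamts1), 1 (Adamts4) and 6 (Adamts9). RefSeq gave 11 promoters for 9 of the 10 genes, and none for Adamts4. The 250 bases before and 50 bases after each start were searched on both strands for TGANTCA, the site of the AP-1 factors FOS and JUN, which classically drive metalloprotease genes. The letters were found in 3 members, all of them from the chromosome 9 cluster, against 8.97% of 27025 genes and 7.81% of 32851 promoters. The STAT letters TTCNNNGAA (8.30% of promoters) and the NF-kB letters GGGANTTTC (1.11%) were found in no member, which says only that these letters are not in these windows. The 100 bases before the start are shown for these 3 genes, because the same short site lay close to the start in each, and for Timp1, the gene with the greatest rise after ConA, for contrast. Capitals mark the AP-1 letters.
Mmp13 (chr9:7272414-7272513, + strand): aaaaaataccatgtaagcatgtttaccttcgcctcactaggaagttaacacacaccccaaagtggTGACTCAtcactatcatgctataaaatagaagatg
Mmp12, second start, inside the gene (chr9:7347274-7347373, + strand): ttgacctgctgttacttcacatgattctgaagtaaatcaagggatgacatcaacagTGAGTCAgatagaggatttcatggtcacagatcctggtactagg
Mmp7, first start (chr9:7691990-7692089, + strand): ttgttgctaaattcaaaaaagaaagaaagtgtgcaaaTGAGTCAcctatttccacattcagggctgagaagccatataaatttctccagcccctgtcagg
Timp1 (chrX:20870066-20870165, + strand): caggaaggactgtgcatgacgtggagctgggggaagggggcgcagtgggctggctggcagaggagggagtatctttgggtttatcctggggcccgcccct
Counted from the start, the site began at base -35 in Mmp13, at base -44 of the second start in Mmp12 and at base -63 of the first start in Mmp7. As the levels below show, the 3 genes that share it did not share a level: Mmp12 stayed under 1 TPM in every library, Mmp13 reached a few TPM, and Mmp7 had the highest level of the 3.

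The question of the first comparisons was how the livers of each genotype changed after ConA. On log2(TPM + 1), limma was fitted over all genes with at least 1 TPM in as many libraries as the smaller group holds, and a gene was called at an adjusted p under 0.05 (Benjamini-Hochberg over all genes tested). ConA changed much of the liver transcriptome, so the calls among the 10 genes are read against a high background. In WT mice 6 of the 10 genes passed the filter and 5 were called, all higher after ConA (Timp1, Timp3, Mmp7, Mmp14 and Adamts1), where 53.0% of all genes tested were called and 22.0% were called higher. In KO mice 9 genes passed and 7 were called, all higher (Timp1, Timp3, Mmp7, Mmp13, Adamts1, Adamts4 and Adamts9), where 64.6% of all genes were called and 33.9% were called higher. In each genotype the ConA libraries lay entirely above the saline libraries for 8 of the 10 genes, against 23.3% of all genes tested in WT and 32.8% in KO mice. A gene that passed the filter only through its ConA libraries could hardly be called other than higher. This held for 3 of the 5 called in WT mice (Timp1, Mmp7 and Adamts1) and for 6 of the 7 called in KO mice (all but Timp3), so the counts of calls describe the genes that passed and their common direction is not read against the background.

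**Figure D1:**
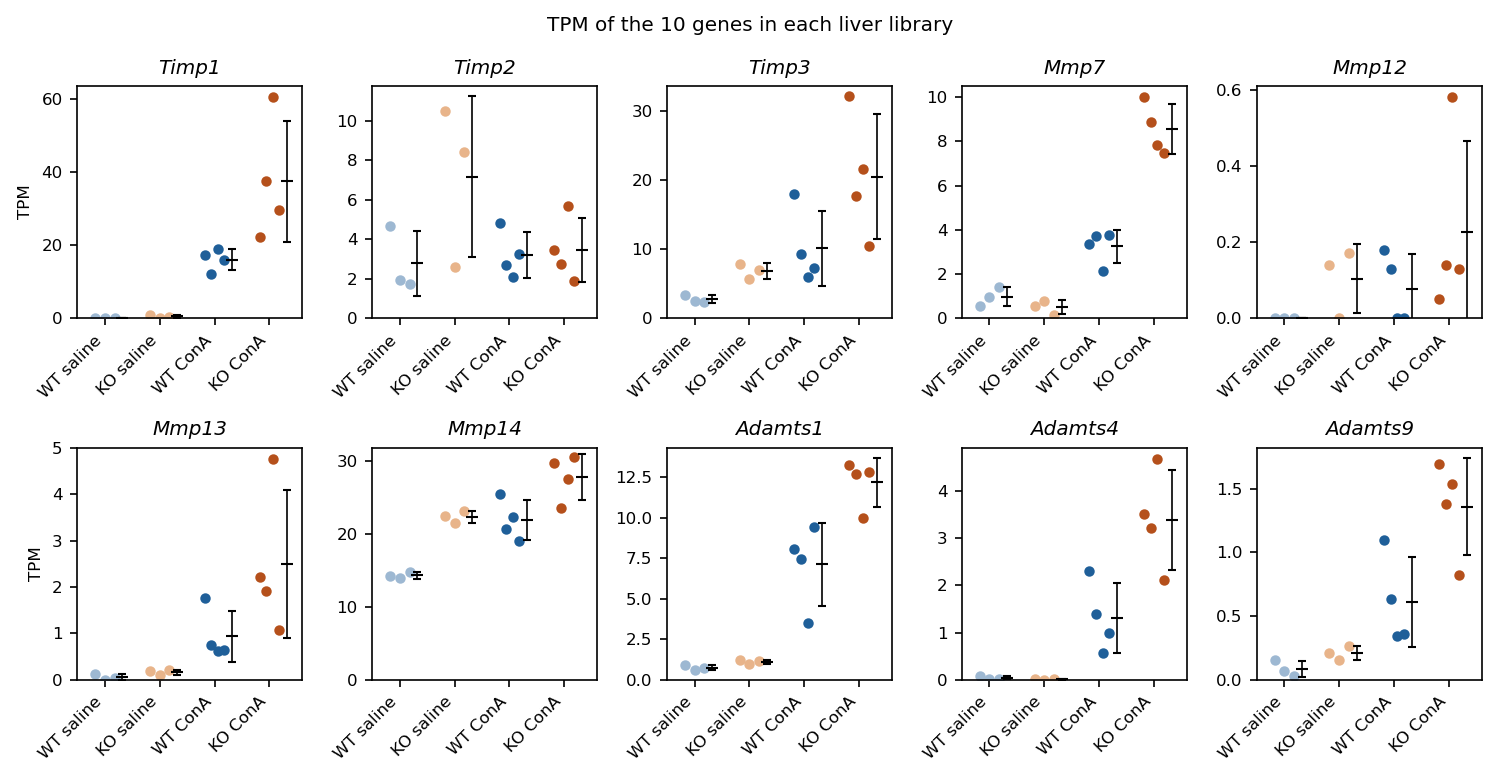
TPM of each of the 10 genes in the 14 liver libraries, with 1 point per library, and the mean and SD of each group in black beside the points. Timp1 sat at or below 0.87 TPM in all 6 saline libraries and between 12.12 and 60.55 TPM in the 8 ConA libraries, while the Timp2 ranges of all 4 groups overlapped.

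Among the inhibitors, Timp1, a secreted inhibitor of most matrix metalloproteases, moved furthest. It was listed at 0, 0 and 0.10 TPM in the WT saline libraries and at 17.23, 12.12, 18.89 and 15.85 TPM in the WT ConA libraries. KO livers held it at 0.87, 0.09 and 0.40 TPM after saline and at 22.24, 37.68, 60.55 and 29.58 TPM after ConA. Every ConA library thus held Timp1 well above every saline library, in a gene that was close to absent from the saline livers. The log2 fold change was 4.03 (SE 0.17, adjusted p = 3.71e-07, limma) in WT mice and 4.67 (SE 0.30, adjusted p = 3.66e-07, limma) in KO mice, on a scale that understates the change of a gene so near 0.

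Timp3, the inhibitor that stays bound to the matrix and also blocks ADAM and ADAMTS proteases, was already present in the saline livers. It stood at 3.35, 2.49 and 2.35 TPM in WT saline and at 18, 9.31, 5.92 and 7.33 TPM in WT ConA. KO livers held 7.83, 5.60 and 6.94 TPM after saline and at 32.16, 17.72, 21.66 and 10.42 TPM after ConA. The groups did not overlap in either genotype, although replicate 1 was the highest of its group in both ConA groups. The same libraries also held the highest summed level of the 9 sinusoidal endothelial markers in their groups, at 36.8 TPM in WT and 49.3 TPM in KO mice. They held the highest T cell marker sums of their groups too (5.88 and 8.02 TPM), so this was not particular to endothelial markers. Stellate and Kupffer cell sums were highest in WT ConA replicate 1 but not in KO ConA replicate 1. In WT mice the endothelial sums were 17.05 to 27.97 TPM after saline and 14.85 to 36.76 TPM after ConA. In KO mice they were 29.73 to 51.01 and 17.51 to 49.34 TPM. The part of any of these cells in the values was not tested. Timp3 rose by a log2 fold change of 1.48 (SE 0.31, adjusted p = 0.00323, limma) in WT and 1.37 (SE 0.30, adjusted p = 0.00187, limma) in KO mice. Of its 50-base transcript stretches only 63.7% occurred in no other gene, since 1684 of them are shared with Syn3 on the opposite strand. Whether reads were counted by strand is not given in the sources used here, so reads from the pair cannot be told apart in these values.

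Timp2, an inhibitor that also takes part in activating the MMP2 precursor together with MMP14, did not pass the test in either genotype. It stood at 4.67, 1.95 and 1.71 TPM in WT saline and at 4.80, 2.68, 2.08 and 3.26 TPM in WT ConA, so that the groups covered nearly the same range. In KO mice it stood at 10.49, 2.60 and 8.41 TPM after saline and at 3.46, 2.72, 5.69 and 1.89 TPM after ConA, again with overlap. The log2 fold change was 0.20 (95% interval -0.46 to 0.86) in WT and -0.79 (95% interval -1.64 to 0.07) in KO mice, so that a change of either direction in WT mice lay within the interval. The KO value passed when KO saline replicate 2 (-1.3, adjusted p = 0.00439, limma) or KO ConA replicate 3 (-1.01, adjusted p = 0.0448, limma) was left out, these being libraries with a low Timp2 after saline and a high one after ConA.

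The mix of TIMP transcripts therefore turned over after ConA. Timp1 made up at most 2.40% of the summed TIMP level in any WT saline library and at most 4.53% in any KO saline library. Its share was 43.0% to 70.2% among the WT ConA libraries and 38.4% to 70.6% among the KO ConA libraries. The 3 inhibitors summed to 4.16 to 8.02 TPM in the WT saline libraries, 8.29 to 19.2 TPM in the KO saline libraries, 24.1 to 40.0 TPM in the WT ConA libraries and 41.9 to 87.9 TPM in the KO ConA libraries. Each of these ranges lay above the one before it. Timp2 and Timp3 held nearly all of the sum in the saline livers of both genotypes, and Timp2 fell to between 4.51% and 12.3% of it in the ConA livers.

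**Figure D2:**
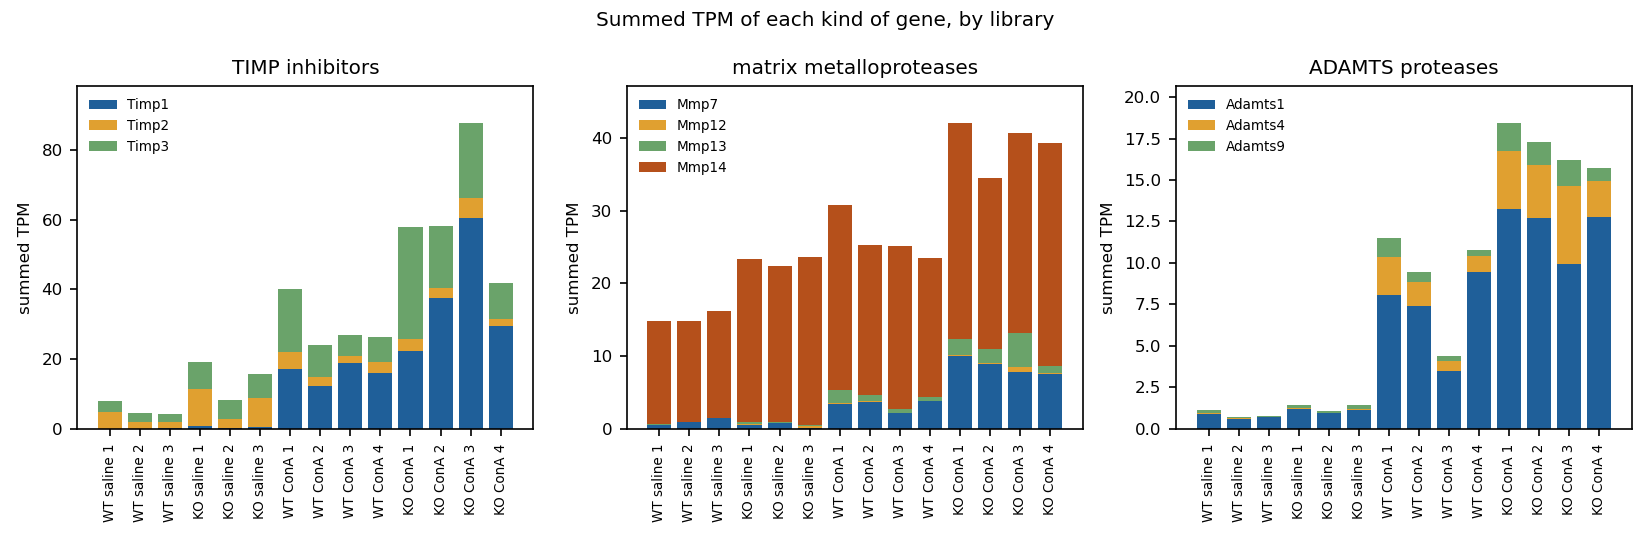
Stacked bars of summed TPM in each library for the 3 TIMP inhibitors (left), the 4 matrix metalloproteases (middle) and the 3 ADAMTS proteases (right). Timp1 forms a large part of every ConA bar and almost none of the saline bars, Mmp14 is the bulk of every matrix metalloprotease bar, and Adamts1 is the bulk of every ADAMTS bar.

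Of the matrix metalloproteases, Mmp14 was by far the most abundant. It encodes a membrane-anchored collagenase that activates the MMP2 precursor, and it made up 91.1% to 97.8% of the summed level of the 4 genes in the saline libraries of both genotypes. It stood at 14.19, 13.94 and 14.81 TPM in WT saline and at 25.47, 20.65, 22.34 and 19.03 TPM in WT ConA, with no overlap. In KO mice it stood at 22.50, 21.45 and 23.13 TPM after saline and at 29.80, 23.53, 27.55 and 30.58 TPM after ConA, again with no overlap but with KO ConA replicate 2 close to the saline level. Mmp14 rose in WT mice by a log2 fold change of 0.57 (SE 0.14, adjusted p = 0.00635, limma), whereas the value of 0.30 (SE 0.13, adjusted p = 0.0630, limma) in KO mice did not pass. With all 14 libraries in 1 fit the KO value did pass (adjusted p = 0.0458), and it also passed without KO ConA replicate 2 (adjusted p = 0.0372). The saline level of KO mice was as high as the ConA level of WT mice: the KO saline range of 21.45 to 23.13 TPM lay inside the WT ConA range of 19.03 to 25.47 TPM.

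Mmp7, matrilysin, is a small secreted protease of epithelia that cuts many non-collagen proteins. It was low in saline livers, at 0.55, 0.94 and 1.41 TPM in WT and at 0.55, 0.78 and 0.16 TPM in KO mice. After ConA it stood at 3.34, 3.72, 2.15 and 3.77 TPM in WT and at 10.02, 8.89, 7.84 and 7.48 TPM in KO mice. Every ConA library thus exceeded every saline library, and the 4 KO ConA libraries stood above all others. The log2 fold change was 1.11 (SE 0.20, adjusted p = 0.00151, limma) in WT and 2.69 (SE 0.19, adjusted p = 5.63e-07, limma) in KO mice. Mmp7 went from between 0.68% and 8.68% of the summed matrix metalloprotease level in the saline libraries to between 8.57% and 16.1% among the WT ConA libraries and to between 19.1% and 25.8% among the KO ConA libraries.

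Mmp13, the main interstitial collagenase of rodents, was nearly absent from the saline livers. It stood at 0.12, 0 and 0.03 TPM in WT and at 0.18, 0.09 and 0.20 TPM in KO saline. After ConA it was at 1.76, 0.74, 0.61 and 0.63 TPM in WT and at 2.22, 1.92, 4.77 and 1.07 TPM in KO mice. The ConA libraries lay above the saline libraries in both genotypes, and KO ConA replicate 3 was the highest of all. In KO mice Mmp13 rose by a log2 fold change of 1.49 (SE 0.28, adjusted p = 0.000766, limma). In WT mice it did not pass the filter, and with no filter on TPM the log2 fold change was 0.85 (SE 0.19, adjusted p = 0.00891, limma).

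Mmp12, the elastase of macrophages, was the only one of the 10 genes that passed the filter in no comparison. It was listed at 0 in all 3 WT saline libraries and at 0.14, 0 and 0.17 TPM in KO saline. After ConA it was at 0.18, 0.13, 0 and 0 TPM in WT and at 0.05, 0.14, 0.58 and 0.13 TPM in KO mice. All of the compared groups overlapped, and no fold change is given for it.

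The ADAMTS proteases were led by Adamts1, which cuts versican and aggrecan and is known as an early gene of inflammation. It stood at 0.88, 0.61 and 0.70 TPM in WT saline and at 8.07, 7.43, 3.50 and 9.44 TPM in WT ConA. In KO mice it stood at 1.20, 0.93 and 1.15 TPM after saline and at 13.24, 12.70, 9.95 and 12.80 TPM after ConA. The groups were far apart in both genotypes, with log2 fold changes of 2.16 (SE 0.27, adjusted p = 0.000145, limma) in WT and 2.65 (SE 0.16, adjusted p = 2.10e-07, limma) in KO mice. Adamts1 held 61.5% to 93.3% of the summed level of the 3 ADAMTS genes across all libraries.

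Adamts4, the aggrecanase best known from inflamed cartilage, went from a trace to a measurable level. It was at 0.08, 0.02 and 0.02 TPM in WT saline and at 2.31, 1.39, 0.57 and 0.99 TPM in WT ConA. In KO mice it was at 0.02, 0 and 0.01 TPM after saline and at 3.53, 3.22, 4.70 and 2.12 TPM after ConA. No saline library came near any ConA library, and in KO mice the log2 fold change was 2.09 (SE 0.19, adjusted p = 4.90e-06, limma). In WT mice the gene did not pass the filter, and with no filter it was 1.10 (SE 0.22, adjusted p = 0.00636, limma). Its share of the ADAMTS sum was at most 1.40% in KO saline and 13.5% to 29.0% in KO ConA.

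Adamts9, which cuts versican at the cell surface, followed the same order at a lower level. It was at 0.15, 0.07 and 0.03 TPM in WT saline and at 1.1, 0.63, 0.34 and 0.36 TPM in WT ConA. In KO mice it was at 0.21, 0.15 and 0.26 TPM after saline and 1.69, 1.38, 1.54 and 0.82 TPM after ConA. The saline and ConA libraries did not overlap in either genotype. The log2 fold change was 0.95 (SE 0.16, adjusted p = 0.000375, limma) in KO mice, and with no filter 0.55 (SE 0.15, adjusted p = 0.0246, limma) in WT mice. Short stretches of Adamts9, Adamts4 and Mmp7 transcripts also lie opposite other genes, and 94.8%, 97.2% and 92.6% of their 50-base stretches occurred in no other gene.

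Ranked by mean TPM, the order of the 10 genes changed after ConA. Mmp14 led in WT saline (14.3 ± 0.448 TPM, SD, n = 3) and KO saline (22.4 ± 0.849 TPM, SD, n = 3), above Timp2 and Timp3, which overlapped each other. In WT ConA Mmp14 (21.9 ± 2.75 TPM, SD, n = 4) still stood just above Timp1 (16.0 ± 2.88 TPM, SD, n = 4), with no overlap. In KO ConA Timp1 (37.5 ± 16.6 TPM, SD, n = 4) had the highest mean, but its libraries overlapped those of Mmp14 (27.9 ± 3.16 TPM, SD, n = 4). The ratio of Timp1 to Mmp14 was at most 0.0387 in any saline library, 0.587 to 0.846 among the WT ConA libraries and 0.746 to 2.20 among the KO ConA libraries. It compares transcript levels only, and inhibition of MMP14 by TIMP1 was not tested. Adamts4, Mmp13 and Adamts9 came behind Adamts1 and Mmp7 in both ConA groups, and neighbours among these 3 overlapped.

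The next question was whether the livers of KO and WT mice differed under the same treatment. After saline, 3 of the 10 genes passed the filter and 2 were called, both higher in KO mice, where 19.2% of all genes tested were called and 6.30% were called higher. These were Timp3, with a log2 fold change of 1.06 (SE 0.15, adjusted p = 0.0116, limma), and Mmp14, with 0.61 (SE 0.08, adjusted p = 0.00982, limma). The KO saline libraries lay above all WT saline libraries for 3 genes, Timp3, Mmp14 and Adamts1, against 13.0% of all genes tested. Timp2 was higher by 1.03 (95% interval -0.03 to 2.10, adjusted p = 0.139, limma) but its groups overlapped, and it passed without KO saline replicate 2 (1.54, adjusted p = 0.0463, limma). The calls for Timp3 and Mmp14 rested on the alike pair of WT saline libraries: with replicates 2 and 3 averaged, no member was called, and the adjusted p was 0.0726 for Timp3 and 0.0678 for Mmp14 (limma). Without WT saline replicate 2 or without replicate 3 there was likewise no call, at adjusted p of 0.0664 to 0.0779. The fold changes hardly moved, to between 0.99 and 1.02 for Timp3 and between 0.59 and 0.63 for Mmp14. With all 14 libraries in the fit Mmp14 alone was called (adjusted p = 0.0259, limma).

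Markers of hepatic stellate cells, the vitamin A-storing cells of the sinusoid, moved with this difference. The 10 stellate markers summed to 23.7 to 88.6 TPM in the WT saline libraries against 121 to 184 TPM in the KO saline libraries, and 5 of the 9 that were tested were called higher in KO mice. With WT saline replicates 2 and 3 averaged no stellate or endothelial marker was called, and 6 and 5 of the 9 tested in each list had an unadjusted p under 0.05 (limma). None of the 10 was at 0 in a whole group, and 9 of them reached 1 TPM in at least 1 library of each saline group. For the 9 markers of sinusoidal endothelial cells the sums were 17.1 to 28.0 TPM in the WT saline libraries against 29.7 to 51.0 TPM in the KO saline libraries, with 5 of 8 tested called higher. Of all genes tested 6.30% were called higher. Some called markers of each list reached 1 TPM in all KO saline libraries but not in all WT saline libraries. They passed the filter through the KO group and could hardly be called lower, so these counts are not read against the background. Among the WT saline libraries, replicate 1 had the highest summed stellate level (88.6 TPM, against 23.7 and 23.8 TPM) and also the highest Timp2 (4.67 TPM) and Timp3 (3.35 TPM). Within KO saline, replicate 2 had the lowest stellate sum (121 TPM) and the lowest Timp2 (2.60 TPM) and Timp3 (5.60 TPM). This was not particular to stellate markers. The endothelial, Kupffer cell and monocyte sums were also highest in WT saline replicate 1 and lowest in KO saline replicate 2. Neutrophil and T cell sums were highest in the former but not lowest in the latter, and the bile duct sum was lowest in both. The part of any of these cells in the result was not tested.

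After ConA, 9 of the 10 genes passed the filter and all 9 had estimates above 0, that is, higher in KO than in WT mice. Only Mmp7 was called, where 0.428% of all genes tested were called and 0.342% were called higher. Its log2 fold change was 1.18 (SE 0.18, adjusted p = 0.0369, limma), with 8.56 ± 1.14 TPM (SD, n = 4) in KO ConA against 3.25 ± 0.755 TPM (SD, n = 4) in WT ConA. At an unadjusted p under 0.05 there were 8 of the 9, beside 16.7% of all genes tested. The groups did not overlap for Timp1, Mmp7 and Adamts1, against 6.37% of all genes tested that were higher without overlap. Mmp13, Adamts4 and Adamts9 reached 1 TPM in 1, 2 and 1 of the 4 WT ConA libraries but in 4, 4 and 3 of the KO ConA libraries, so they were tested through the group where they were higher, and no count over the 9 is read as a result about the 10 genes.

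The genes that were not called had wide intervals. Timp1 was higher by 1.1 (95% interval 0.51 to 1.69, adjusted p = 0.0811, limma), Timp3 by 0.96 (0.17 to 1.74, adjusted p = 0.211, limma) and Adamts4 by 0.95 (0.39 to 1.5, adjusted p = 0.102, limma). Mmp13 was higher by 0.79 (0.14 to 1.44), Adamts1 by 0.76 (0.21 to 1.3), Adamts9 by 0.56 (0.14 to 0.98) and Mmp14 by 0.34 (0.02 to 0.66), with adjusted p of 0.164 to 0.274 (limma). Timp2 stood apart from the others at 0.05 (95% interval -0.55 to 0.65), and its sign turned when single libraries were left out. With all 14 libraries in 1 fit, which shares the spread of the saline groups, 5 members were called higher in KO ConA: Timp1, Mmp7, Adamts1, Adamts4 and Adamts9. Calls over all genes rose in that fit too, to 640 from 45, so the added member calls are not read as particular to these genes. Adamts4 and Adamts9 were also tested through the group where they were higher. The call for Mmp7 was itself near the threshold. It was lost with no filter on TPM (adjusted p = 0.0876) and without any 1 of 6 libraries, namely WT ConA 2, WT ConA 4 and each of the KO ConA libraries (adjusted p = 0.0588 to 0.0990), while its fold change stayed between 1.05 and 1.25.

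**Figure D3:**
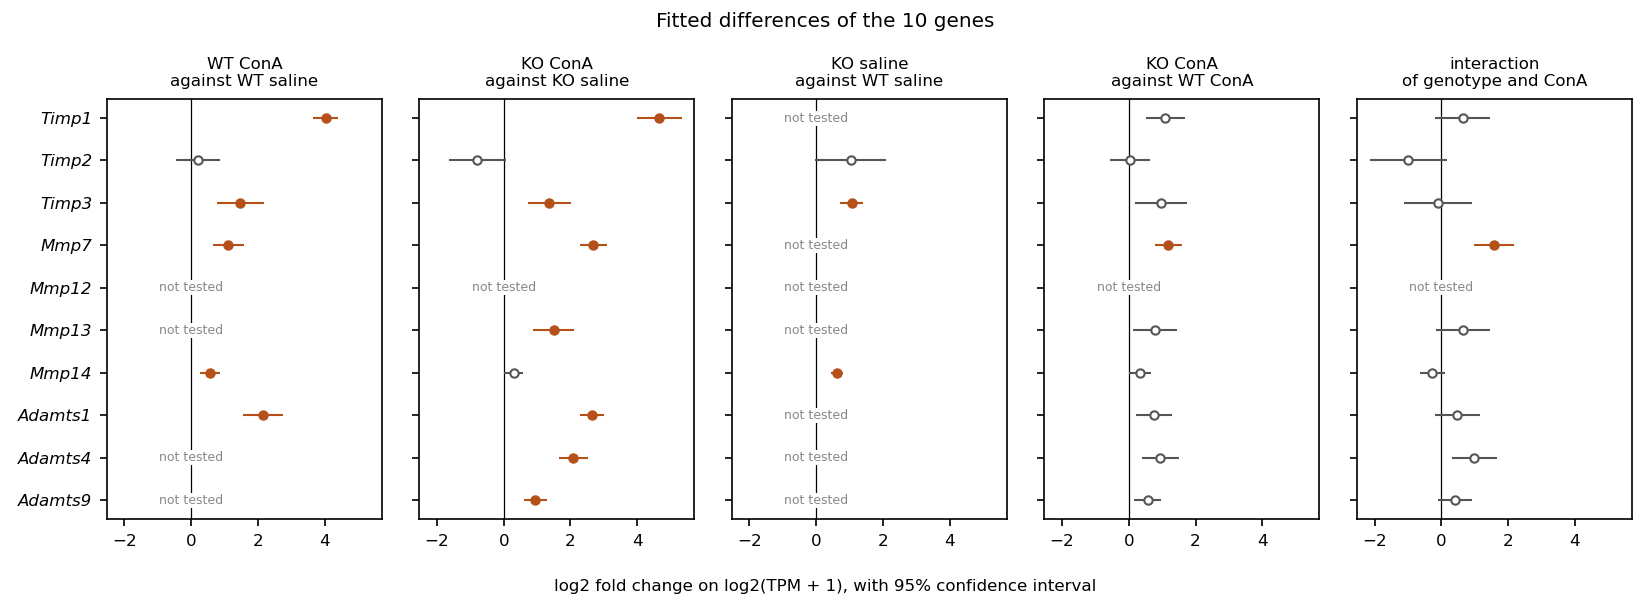
Log2 fold change of each gene on log2(TPM + 1), with its 95% confidence interval, in each of the 4 comparisons and for the difference between the responses of the genotypes (right). Filled points were called at an adjusted p under 0.05, open points were not, and genes below the filter are marked as not tested; all 9 tested genes lie right of 0 in KO ConA against WT ConA, with Timp2 at 0.05, but only Mmp7 is filled.

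Whether the change after ConA itself differed between genotypes was tested as an interaction over all 14 libraries. Of 9 genes tested 2 had an unadjusted p under 0.05 (25.3% of all genes tested) and only Mmp7 was called, with a difference between the responses of 1.58 on the log2 scale (SE 0.28, adjusted p = 0.0165, limma), where 4.78% of all genes tested were called and 2.64% were called with a positive difference. Besides the higher ConA level, the saline mean was lower in KO than in WT mice, with overlapping libraries (0.497 ± 0.313 TPM, SD, n = 3, against 0.967 ± 0.431 TPM, SD, n = 3). The call was lost with WT saline replicates 2 and 3 averaged (adjusted p = 0.0618), and without WT saline 2 (0.0579), WT saline 3 (0.0730) or KO saline 1 (0.0505), while the difference stayed between 1.40 and 1.74 when any 1 library was left out. Adamts4 came next, with 0.99 (95% interval 0.32 to 1.66, adjusted p = 0.0763, limma), and passed without WT ConA replicate 1 (1.18, adjusted p = 0.0306, limma). For Timp1 (0.64), Mmp13 (0.65), Adamts1 (0.48) and Adamts9 (0.41) the intervals included 0, as they did for Timp3 (-0.10), Mmp14 (-0.27) and Timp2 (-0.99). Timp3 and Mmp14, which stood higher in KO mice already after saline, thus had no larger estimated response in KO than in WT mice. For the difference in Timp1 the sign depended on the pseudocount, since its saline libraries were at or near 0: it was -0.70 with a pseudocount of 0.1.

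Bile duct markers were examined beside Mmp7 because matrilysin is an epithelial gene. The 6 markers summed to 18.7 to 32.2 TPM in the WT ConA libraries against 36.9 to 56.4 TPM in the KO ConA libraries, without overlap, although none of the 5 tested was called and 2 had an unadjusted p under 0.05. In the saline libraries, where Mmp7 was lowest, the same sum was higher, at 46.6 to 57.0 TPM for WT and 83.8 to 89.5 TPM for KO mice. The sum was thus lower after ConA, but the mean log2(TPM + 1) of the same 6 markers was not: it was 1.60 to 1.68 in WT saline and 1.61 to 1.88 after ConA, and 1.92 to 2.37 and 1.96 to 2.46 in KO mice. Spp1, named after its values were seen, fell after ConA in both genotypes (log2 fold changes of -1.47 and -1.12), whereas Sox9, also named after its values were seen, rose in both (1.21 and 1.51). In all, 3 of 5 tested bile duct markers were called higher and 1 lower in WT mice, and 1 was called each way in KO mice. Over all genes tested, 22.0% were called higher and 31.0% lower in WT mice, and 33.9% and 30.7% in KO mice. No marker of the list was at 0 in a whole group. The part of these cells in the difference between genotypes was not tested.

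**Figure D4:**
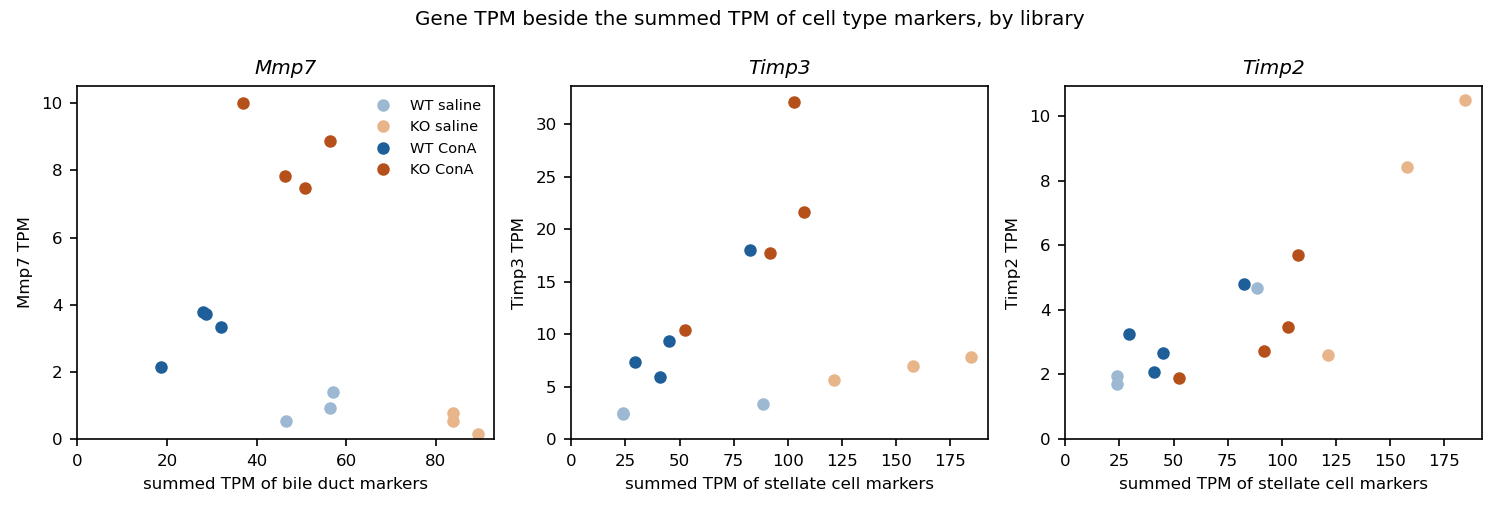
TPM of Mmp7 against the summed TPM of 6 bile duct markers (left), and TPM of Timp3 (middle) and Timp2 (right) against the summed TPM of 10 stellate cell markers, with 1 point per library, coloured by group. At bile duct sums of 46.4 to 57.0 TPM, Mmp7 was 7.48 to 8.89 TPM in 3 KO ConA libraries and at most 1.41 TPM in the 3 WT saline libraries, and the 2 libraries with the highest stellate sums also had the highest Timp2.

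The rest of the metalloprotease family was followed through lists of related genes. Of 19 other matrix metalloproteases, 14 were in the files and 5 were tested in each ConA comparison, and 2 were called higher and 3 lower in both genotypes, where 31.0% of all genes tested in WT and 30.7% in KO mice were called lower. Mmp9, gelatinase B of neutrophils and macrophages, rose by 1.49 in WT and 1.98 in KO mice, and Mmp8, neutrophil collagenase, rose by 2.04 and 2.78. Mmp15, a membrane-anchored relative of Mmp14, fell by 2.83 in WT and 2.44 in KO mice, and Mmp19 fell by 2.11 and 1.68. Mmp8 and Mmp9 did not reach 1 TPM in all saline libraries of either genotype, and Mmp15 did not in all ConA libraries. The filter thus largely set the direction of their calls, and the split is not read as a result about the family. The 9 neutrophil markers summed to 5.41 to 11.7 TPM over the saline libraries, 327 to 577 TPM over the WT ConA libraries and 425 to 981 TPM over the KO ConA libraries, with 8 of 9 called higher after ConA in each genotype. Their part in the rise of Mmp8 and Mmp9 was not tested. The shares called higher over all genes tested were 22.0% in WT and 33.9% in KO mice. In KO ConA against WT ConA none of 4 tested members of the list was called (limma), and 2 had an unadjusted p under 0.05: Mmp8 (0.76, adjusted p = 0.260) and Mmp9 (0.54, adjusted p = 0.274). Of the 9 neutrophil markers likewise none was called and 6 had an unadjusted p under 0.05, all higher in KO mice, and their part in these values was not tested.

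Within the chromosome 9 cluster the genes did not move as a block. Mmp8 went from at most 0.10 TPM in the saline libraries to 2.04 to 5.17 TPM in the WT ConA libraries, and to 3.72 to 9.59 TPM in the KO ConA libraries, next to the rises of Mmp13 and Mmp7 at either end. Mmp27, named for its position between Mmp8 and Mmp7, stood at 0 to 0.38 TPM in saline and 0 to 0.08 TPM in ConA libraries. Mmp3, stromelysin, was named after its values were seen. It was at 0 in all WT saline libraries, at 0.09 to 0.13 TPM in the KO saline, 0.04 to 0.22 TPM in the WT ConA and 0.44 to 1.06 TPM in the KO ConA libraries. Mmp12, which lies between Mmp13 and Mmp3, stayed at 0 to 0.58 TPM.

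Of 20 other ADAMTS and ADAMTS-like genes in the files, 1 was tested in WT mice and called lower, and 5 were tested in KO mice, of which 4 were called lower. The 4 called reached 1 TPM in all 3 KO saline libraries and in at most 2 KO ConA libraries, so they passed the filter through the saline group and could hardly be called higher, and nothing is read from their direction. Adamts7, which cuts cartilage oligomeric matrix protein, fell by 1.61 in WT and 1.83 in KO mice. Among the membrane-bound ADAM sheddases, 1 of 3 tested was called higher in WT mice and 4 of 5 in KO mice, with none lower in either. The shares called higher over all genes tested were 22.0% in WT and 33.9% in KO mice. Adam9 rose by 0.95 in WT and 2.16 in KO mice, and Adam10 and Adam17, the main sheddases of cytokines and receptors, had values of 0.12 and 0.43 in WT mice that did not pass and rose by 0.94 and 0.99 in KO mice. The WT call for Adam9 was lost with no filter and in most fits with a library left out (adjusted p = 0.0626 to 0.0984). No ADAM gene was called in KO ConA against WT ConA (limma), and 1 of 5 tested, Adam9, had an unadjusted p under 0.05 (0.72, adjusted p = 0.249).

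Inhibitors outside the TIMP family were called in both directions. A2m, alpha-2-macroglobulin, which traps proteases of all classes and is an acute-phase protein in rodents, rose by 5.95 in WT and 6.15 in KO mice. Of 5 tested, 2 were called higher and 2 lower in WT mice, and 2 higher and 1 lower in KO mice. Over all genes tested, 22.0% were called higher and 31.0% lower in WT mice, and 33.9% and 30.7% in KO mice. The mix of directions is not read as a result about the list. Mug1 and Mug2, murinoglobulins with the same trapping mechanism, were lower by 0.91 and 0.88 in WT ConA than in WT saline. In the saline livers both were called lower in KO than in WT mice, by 0.99 and 0.59, but not with WT saline replicates 2 and 3 averaged (adjusted p = 0.0836 and 0.0846, limma), and in KO mice they had no call after ConA. None of the 5 was called in KO ConA against WT ConA, and none had an unadjusted p under 0.05.

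**Figure D5:**
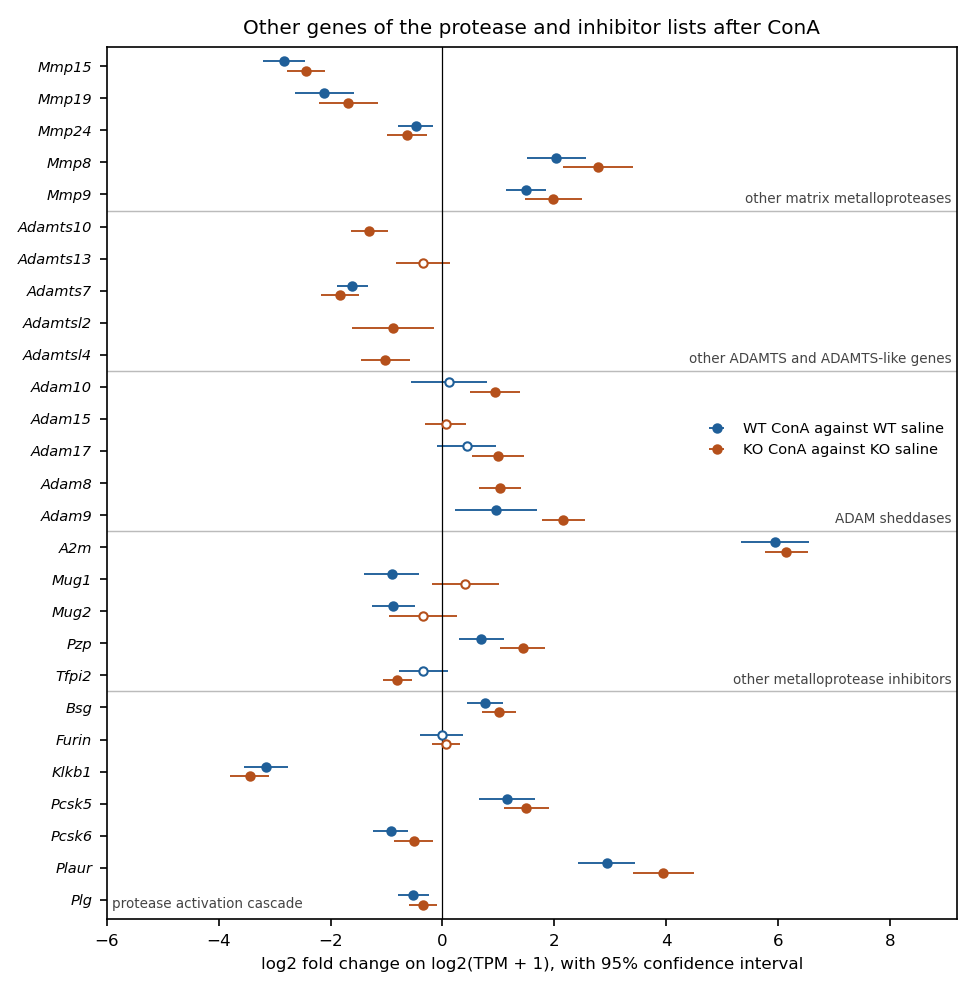
Log2 fold change after ConA, with 95% confidence interval, of the tested genes of 5 lists (other matrix metalloproteases, other ADAMTS and ADAMTS-like genes, ADAM sheddases, other inhibitors and the activation cascade), in WT mice (blue) and KO mice (orange). Filled points were called at an adjusted p under 0.05; A2m (5.95 and 6.15) lies furthest right, and Klkb1 and Mmp15 furthest left.

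The activation cascade list held mostly genes of the plasminogen and proprotein convertase system, which activates metalloprotease precursors. Among 7 tested, 3 were called higher and 3 lower in each genotype after ConA. Not every gene called higher belongs to that system. Shares over all genes tested were 22.0% higher and 31.0% lower in WT mice, and 33.9% and 30.7% in KO mice. Plaur, the urokinase receptor, rose by 2.93 in WT and 3.95 in KO mice, and Klkb1, plasma prekallikrein of hepatocytes, fell by 3.16 and 3.45. In KO ConA against WT ConA none of 7 was called, and 1 had an unadjusted p under 0.05, Plaur (1.18, adjusted p = 0.0674, limma).

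Among 20 matrix proteins that these enzymes cut, 5 of 12 tested were called higher and none lower in WT mice. In KO mice 22.0% and 31.0%, the WT shares called higher and lower over all genes tested, were 33.9% and 30.7%. There 5 of 14 matrix genes were called higher and 6 lower. The stellate markers moved with the latter, with 6 of 9 tested called lower after ConA in KO mice and sums of 121 to 184 TPM after saline against 52.4 to 108 TPM after ConA, and their part in the result was not tested. The basement membrane collagens Col4a1 and Col4a2 rose by 4.38 and 1.56 in WT and by 4.01 and 1.55 in KO mice. Thbs1, thrombospondin 1, rose by 1.23 and 2.06, and Nid1, a linker of the basement membrane, rose by 1.16 and 2.10. In KO ConA against WT ConA none of 13 was called, and 4 had an unadjusted p under 0.05, led by Nid1 (1.27, adjusted p = 0.0534, limma), Thbs1 (1.21, adjusted p = 0.0651, limma) and Dcn, decorin (1.05, adjusted p = 0.131, limma).

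Cytokines and transcription factors known to induce metalloprotease genes were called higher in 9 of 10 tested in WT and 10 of 12 in KO mice, with none lower. Among all genes tested, 22.0% were called higher in WT and 33.9% in KO mice. Some genes of the list, Tnf and Ifng among them, did not reach 1 TPM in all saline libraries of either genotype. They passed the filter through their ConA libraries and could hardly be called lower, so these counts are not read against the background. The AP-1 subunits Junb and Jun rose by 3.04 and 2.37 in WT and by 4.20 and 3.42 in KO mice, and Fos rose by 0.70 and 3.55. Tnf, a cytokine central to ConA hepatitis, rose by 2.44 and 2.20, and Ifng, interferon gamma of T and NK cells, rose by 1.52 and 2.93. The difference between the responses was called for 3 of 13 tested, all larger in KO mice: Fos (2.85, adjusted p = 0.0279, limma), Jun (1.04, adjusted p = 0.0349, limma) and Junb (1.16, adjusted p = 0.0355, limma). Of all genes tested, 4.78% were called and 2.64% were called with a positive difference. In KO ConA against WT ConA none was called, and 6 of 10 had an unadjusted p under 0.05, led by Fos (2.09, adjusted p = 0.0667, limma), Ifng (1.38, adjusted p = 0.0674, limma) and Ets2 (0.80, adjusted p = 0.0837, limma). In the saline comparison 1 gene of this list was called higher in KO mice and 3 lower, namely Fos (-0.76), Jun (-0.58) and Junb (-0.79), where 12.9% of all genes tested were called lower. With WT saline replicates 2 and 3 averaged these 3 saline calls were lost (adjusted p = 0.0819 to 0.0879, limma). So were the 3 calls for the difference between the responses (adjusted p = 0.0863 to 0.104, limma), each also lost in some fits without 1 library. Those for Jun and Junb were lost on rescaling (0.0886 and 0.108) and with no filter (0.0513 and 0.0567). The WT groups of Fos overlapped. Its WT call was lost with the pair averaged (adjusted p = 0.107, limma), all 14 libraries (0.170), the replicate block (0.0531) or no filter (0.0607). Some fits without 1 library also lost it (0.0713 to 0.121).

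The genes whose pattern over the 14 libraries was most like that of a member were found by the root mean square difference of log2(TPM + 1), after removing each gene's mean, among the 11326 other genes tested. For Timp1 these were Pkm, pyruvate kinase (0.285), Rnd1 (0.437) and Gdf15, a cytokine of cell stress (0.438). For Timp3 they were Esam, an endothelial adhesion molecule (0.199), Sting1 (0.257) and Rcn1 (0.259). For Adamts1 they were Skil (0.194), Synpo (0.198) and Chka (0.214), and for Mmp14 they were Stk39 (0.155), S100a10 (0.168) and Snrpd1 (0.172). Pkm stood at 3.38 to 8.17 TPM in the saline libraries, 76.0 to 94.4 TPM in the WT ConA libraries and 133 to 201 TPM in the KO ConA libraries. Like Timp1 it was higher in every KO ConA library than in any WT ConA library. These genes were chosen for their likeness to a member, so such shared features come with the choice. Esam was at 1.20 to 2.41 TPM in the WT saline, 4.01 to 5.73 TPM in the KO saline, 5.29 to 12.4 TPM in the WT ConA and 7.02 to 18.2 TPM in the KO ConA libraries, with the overlap of the ConA groups that Timp3 also showed.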

How the data were processed

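Liver RNA-seq of 14 mice was analysed from the TPM values the authors deposited, 1 file per library. The submitters' processing notes name Bowtie2, RSEM 1.3.1 and GRCm38.p6, whereas the study's methods name STAR, HTSeq and edgeR; which of them made the values was not resolved, and no counts or depths were used. Groups were taken from the sample labels. TPM was transformed to log2(TPM + 1), and limma 3.58.1 (R 4.3.3; lmFit, eBayes with trend) was fitted over all genes with TPM of at least 1 in as many libraries as the smaller group holds. Each comparison used its own libraries, and the interaction used all 14. Benjamini-Hochberg adjustment ran over all genes tested, with calls at 0.05. The fit was tested on simulated data. Comparisons that share a group are not independent, and p-values measure the spread between these libraries.

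Each fit was repeated with 0.1 as the pseudocount, with a filter at 5 TPM or none, with median-ratio rescaling, with robust eBayes, with a replicate block, with all 14 libraries, with WT saline replicates 2 and 3 averaged, and with each library left out in turn. Averaging the pair for the related and marker lists was added after seeing the data. All 10 members were reported. Related lists were given by counts, with at most the 3 genes of smallest p in WT ConA against WT saline and in KO ConA against WT ConA by name. In the related and marker lists too, some genes passed the filter through a single group, which largely set the direction of their calls. The members and lists were chosen with earlier results of these data known. Positions and promoters came from RefSeq (GRCm38.p6), in which 17604 of 17656 gene IDs were found, and 50-base stretches were compared over the GENCODE transcripts of that build. A gene of the activation cascade list is not reported here.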

Additional observations from a re-analysis of the deposited data

Results flagged for a closer look

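For 3 of the 20 gene and group combinations with 4 libraries, 1 library stood far from the other 3 (Dixon's criterion at 95%, which chance meets in about 1 of 20 groups). Mmp12 in KO ConA was 0.58 TPM in replicate 3, against 0.05 to 0.14 TPM in the others. Mmp13 in WT ConA was 1.76 TPM in replicate 1, against 0.61 to 0.74 TPM in the others. Adamts1 in KO ConA was 9.95 TPM in replicate 3, against 12.70 to 13.24 TPM in the others. KO ConA replicate 3 held the highest Mmp12, Mmp13, Adamts4, Timp1 and Timp2 of its group together with the lowest Adamts1.

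The change of Mmp7 after ConA was called as different between the genotypes, by 1.58 on the log2 scale (SE 0.28, adjusted p = 0.0165, limma). The call was lost with WT saline replicates 2 and 3 averaged (adjusted p = 0.0618, limma). It was also lost without WT saline replicate 2, WT saline replicate 3 or KO saline replicate 1. Mmp7 reached 1 TPM in 1 WT saline library and 0 KO saline libraries, so it was tested through the ConA libraries.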

How the results depend on the processing

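Over the alternatives, 531 of 566 member values kept their direction and their side of the threshold, 18 fell short of it, 11 newly passed and 6 turned sign. With no filter the members called rose from 5 to 8 in WT ConA against WT saline and fell from 1 to 0 in KO ConA against WT ConA. A filter at 5 TPM left 4 of 7 calls in KO ConA against KO saline, since fewer members were tested. All 14 libraries in the fit gave 1 call in KO saline against WT saline and 5 in KO ConA against WT ConA. Averaging WT saline replicates 2 and 3 gave 0 calls in KO saline against WT saline and 0 for the interaction. Leaving out 1 library gave 0 to 3 calls in KO saline against WT saline, 0 to 1 in KO ConA against WT ConA and 0 to 2 for the interaction. The sign turned for Timp1 in the interaction (-0.70, pseudocount 0.1). With 1 library left out it turned for Timp2 in KO ConA against WT ConA in 3 fits (range -0.17 to 0.23) and for Timp3 in the interaction in 2 fits (range -0.35 to 0.19). The cause of these changes was not tested.

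Over all genes, KO saline against WT saline gave 2009 calls, but 958 with no filter, 332 with all 14 libraries, 49 with the pair averaged, 45 and 51 without WT saline replicate 3 or 2, and 286 and 640 without KO saline replicate 1 or 2. KO ConA against WT ConA gave 45, but 3 with no filter, 25 rescaled, 640 with all 14 libraries and 5 to 52 with 1 library left out. The interaction gave 541, but 345 with no filter, 28 with the pair averaged and 22 to 769 with 1 library left out. Rescaling moved the share of higher calls from 32.8% to 49.1% in KO saline against WT saline and from 80% to 48% in KO ConA against WT ConA, and it moved the median of all genes by -0.11 in the interaction. No member value changed sign under rescaling.

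With the replicate block the members called numbered 5, 7, 3, 1 and 1 in the order of the comparisons above, the added call being Timp2 in KO saline against WT saline (adjusted p = 0.0429). Over all genes the block gave 140 calls in KO ConA against WT ConA and 358 for the interaction. Same-numbered libraries did not all deviate together (correlations of -0.19 to 0.41), so the numbers were not taken to pair the mice.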

Other observations

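Markers of immune cells not described above also differed between the groups. The 8 Kupffer cell markers summed to 70.2 to 120 TPM for WT saline, 30.8 to 66.4 TPM for KO saline, 8.99 to 36.9 TPM for WT ConA and 10.9 to 29.6 TPM for KO ConA libraries. After ConA 6 of 8 were called lower in WT mice, and 4 of 8 lower and 1 higher in KO mice. The 7 monocyte markers summed to 25.6 to 57.4 TPM over the saline and 50.3 to 157 TPM over the ConA libraries, with 5 of 6 tested called higher in WT mice and 4 of 5 in KO mice. For the 8 T cell markers the WT saline sums were lowest, between 1.3 and 2.39 TPM. Both the WT ConA sums (3.08 to 5.88 TPM) and the KO saline sums (3.09 to 4.65 TPM) lay above them without overlap. KO ConA sums reached from 4.3 to 8.02 TPM and overlapped those of KO saline. In WT mice 0 of these markers passed the filter for the ConA comparison, so a change there was not tested gene by gene. In KO mice 2 were tested and 0 were called (limma, 0 at an unadjusted p under 0.05). Of the hepatocyte markers 6 of 8 were called lower and 1 higher after ConA in both genotypes. Beside these marker counts, 22.0% of all genes tested were called higher and 31.0% lower in WT mice. In KO mice the shares were 33.9% and 30.7%.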
